A study of Ovis aries with 30 samples.

Results

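The nuclear genes of respiratory complex I were followed through brown adipose tissue (BAT) and thyroid tissue of newborn lambs. Members were all rows of the count table named NDUFA, NDUFAB, NDUFB, NDUFC, NDUFS, NDUFV or NDUFAF followed by a number, which gave 45 of the 28524 genes in the table. Of these, 37 were subunits and 8 were the assembly factors NDUFAF1 to NDUFAF8, and all 45 passed the filter on low counts in both tissues. RNA had been sequenced from BAT around the kidneys and from the thyroid of 15 Romney lambs, 2 libraries per lamb. The controls were 3 lambs sampled within about 24 h after lambing. A further 6 lambs had been kept for 2 days at 4 °C (cold) and 6 for 2 days at 20 to 22 °C (ambient temperature, AT). The treated lambs were thus older than the controls, so that treatment and age cannot be told apart against the controls, and only cold against AT compared lambs of one age. No lamb carried a transgene or received an agent, and the lambs were of both sexes, each the heavier of a pair of twins.

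Complex I (NADH:ubiquinone oxidoreductase) is the entry point of electrons from NADH into the respiratory chain of the mitochondrial inner membrane. It is built from an N module that oxidizes NADH, a Q module that passes the electrons on to ubiquinone, and a membrane arm (P module, with a proximal and a distal part) that pumps protons. Its assembly factors help to build the complex and are not part of the finished enzyme, and a few further subunits (ND genes) are encoded in the mitochondrial genome. Brown adipocytes are packed with mitochondria and burn fuel through this chain, with the uncoupling protein UCP1 turning the proton gradient into heat, whereas thyroid follicular cells use mitochondrial energy for hormone synthesis.

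Of the 37 subunits, 11 belonged to the N module, 6 to the Q module, 9 to the proximal and 10 to the distal part of the P module, and NDUFA4 stood outside these modules, since it is now placed in complex IV. The subunit NDUFB3 had no row of its own symbol, and its counts stood under LOC101106662, paired with NDUFB3 by its RefSeq gene identifier, so that it was not a member. None of the 7 mitochondrial ND genes had a row. The exons of 5 members overlapped those of another row, namely NDUFA2 with TMCO6, NDUFS3 with KBTBD4, NDUFAF7 with PRKD3 and NDUFAF8 with TEPSIN on the opposite strand, and NDUFS7 with TRNAN-GUU_29 on the same strand. The strand setting of the counting is not given in the sources used here, so that reads of these pairs may have been exchanged.

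Libraries held 31556500 to 37025998 counts in BAT and 25062784 to 30124871 in thyroid, of which 25771 to 57269 and 34921 to 105128 were on the 45 members. The lowest count of a member in a library was 27 in BAT and 55 in thyroid. The rows LOC114112617 and LOC114115287 alone took 43.8 to 76.5% of the counts in BAT and 5.18 to 27.8% in thyroid. Counts were scaled to the reference genes ACTB, RPL19 and HUWE1 (normalised counts). Controls 1 and 3 entered the fits, and values of the unused control 2 are given beside results that turned on the controls. The thyroid marker TG (thyroglobulin) had a median of 37.5 normalised counts in BAT and 2153066 in thyroid, and UCP1 had 7569 in BAT and 16.3 in thyroid. UCP1 was low in the BAT of AT lamb 6 (196 normalised counts).

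Some libraries stood apart from their group. The thyroid library of AT lamb 3 held 3751330 normalised counts summed over 13 skeletal muscle markers (such as ACTA1, CKM and MYH2) and that of control 1 held 348266, against 278 to 4544 in the other 13 thyroid libraries. None of the 13 muscle markers was at 3 reads or fewer in these 2 libraries, and at most 3 were in any other thyroid library. In BAT, the same sum lay between 344 and 930 in all 15 libraries. The BAT library of AT lamb 6 had the lowest sum of brown adipocyte markers of the libraries in use (751 normalised counts, against 2531 to 27144 in the other 13) and the highest sum of fibroblast markers (180773, against 27196 to 105384). Results that rest on these libraries are given with and without them.

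**Figure D1:**
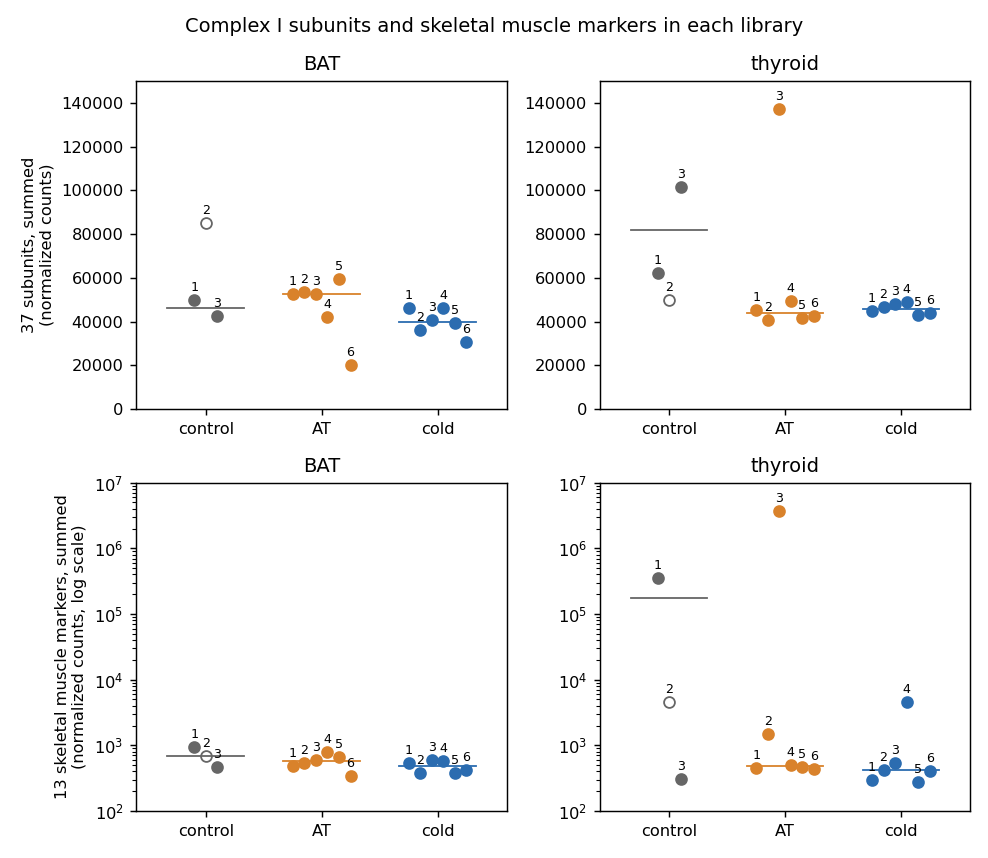
Normalised counts summed over the 37 complex I subunits (linear axis) and over 13 skeletal muscle markers (log axis), by tissue and group. Each point is a library with the number of its lamb within the group, the line is the median of the libraries in use, and the open circle is control 2, which was not in the main fit. The thyroid library of AT lamb 3 was highest in both sums, at 137404 for the subunits and 3751330 for the muscle markers, while thyroid control 3 held 101603 for the subunits and 306 for the muscle markers.

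Subunit transcripts were far more abundant per length than those of the assembly factors in both tissues. As the median over 14 lambs in normalised counts per kilobase of exon, scaled within each tissue, the subunits ranged from 142 to 3243 with a median of 1426 in BAT, and the assembly factors from 30.1 to 846 with a median of 92.7. In thyroid, the subunits ranged from 216 to 4000 with a median of 1218 and the assembly factors from 46.8 to 1521 with a median of 192. The ranges of both kinds therefore overlapped in both tissues.

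In BAT, the highest levels per kilobase were those of the proximal membrane arm subunit NDUFA13 (3243 normalised counts per kilobase), of NDUFA4 (3139) and of the N module subunit NDUFA6 (3100). In thyroid, NDUFS5 (4000), a small subunit of the proximal membrane arm, was followed by NDUFA4 (3237) and the distal arm subunit NDUFB10 (3048). The lowest members were the same assembly factors in both tissues. NDUFAF2, a late assembly factor, was lowest with 30.1 normalised counts per kilobase in BAT and 46.8 in thyroid, followed by NDUFAF1 (42.4 and 69.4), which acts on the membrane arm intermediate, and NDUFAF4 (59.3 and 86.9), which acts on the early intermediate that holds the Q module.

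The assembly factors took a smaller share of the members' reads in BAT than in thyroid. The share was 3.52 to 6.24% with a median of 4.53% in BAT and 4.80 to 9.64% with a median of 7.14% in thyroid, and it was lower in BAT in 13 of 14 lambs. The ranges overlapped. The lowest shares in thyroid were those of AT lamb 3 (4.80%) and control 3 (5.01%), the 2 thyroid libraries with the highest sums of subunits, and the highest share in BAT was that of AT lamb 6 (6.24%). The unused control 2 lay outside the range of the other lambs in both tissues, with 2.7% in BAT and 11.2% in thyroid.

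BAT and thyroid were compared over the 14 lambs in use, with both libraries of each lamb and no term for the lamb in the fit. Complex I genes were higher in BAT, by a median log2 fold change (log2FC) of 0.84 over the 37 subunits and 0.44 over the 8 assembly factors. At an adjusted p under 0.05 (edgeR's quasi-likelihood test, 2-sided, adjusted over all 17021 genes), 32 of the 45 members were higher in BAT and 0 were lower, and DESeq2 gave the same counts. Of all genes tested, 44.5% were higher in BAT by the same rule, with a median log2FC of 0.24. With a log2FC of at least 1 as well, 13 members passed, against 25% of all genes, a similar share. With the lamb as a block, 36 members were higher, against 46.1% of all genes. In bulk tissue, fewer cells of a type and less RNA per cell cannot be told apart.

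Members higher in BAT were found in both kinds and in every module, where 44.5% of all genes were higher by the same rule. Higher in BAT were 26 of 37 subunits and 6 of 8 assembly factors, by module 8 of 11 in the N module, 4 of 6 in the Q module, 7 of 9 in the proximal and 6 of 10 in the distal membrane arm. Summed over the subunits, BAT held 33985, 70840 and 94912 normalised counts (lowest, median and highest of 14 lambs) and thyroid 25265, 27957 and 87899. The sum was higher in BAT in 13 of 14 lambs, and the ranges overlapped through the BAT library of AT lamb 6, which was lowest there, and the thyroid libraries of AT lamb 3, which was highest there, and of the controls. Without AT lamb 3, the highest thyroid sum was 63933. Member by member, 12 of 45 were higher in BAT in every one of the 14 lambs, against 25.8% of all genes, a similar share.

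The largest difference was that of NDUFA10, a subunit of the proximal membrane arm. NDUFA10 (chromosome 1, 1475301 to 1514135, plus strand, Oar_rambouillet_v1.0) had 1242, 3456 and 4513 normalised counts in BAT and 271, 391 and 1470 in thyroid (lowest, median and highest of 14). It was higher in BAT in 14 of 14 lambs, and the ranges met where the lowest BAT library, that of AT lamb 6, lay below the thyroid libraries of AT lamb 3 and control 3. Its log2FC was 2.49 ± 0.27 (SE, adjusted p = 9.76e-09).

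The flavoprotein subunit NDUFV1 of the N module, which binds NADH and FMN, was next. NDUFV1 (chromosome 21, 47214331 to 47220095, plus strand) had 1858, 6072 and 8959 normalised counts in BAT and 800, 1089 and 3705 in thyroid, and was higher in BAT in 14 of 14 lambs (log2FC 2.07 ± 0.26, adjusted p = 1.09e-07). The Q module subunit NDUFA5 (chromosome 4, 96026223 to 96042058, minus strand) had 517, 847 and 1532 normalised counts in BAT and 123, 173 and 787 in thyroid. It was higher in 14 of 14 lambs (log2FC 1.87 ± 0.27, adjusted p = 9.76e-07), and without AT lamb 3 its ranges did not overlap.

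Among 6 nuclear core subunits, which carry the redox cofactors or line the path of the electrons, 4 were higher in BAT. Beside NDUFV1, these were NDUFS1 (log2FC 1.14), the largest iron-sulfur subunit of the N module, and the Q module subunits NDUFS7 (1.08) and NDUFS8 (0.94). NDUFV2, the iron-sulfur partner of NDUFV1, did not pass (log2FC 0.36 ± 0.18, adjusted p = 0.0754), but passed with the lamb as a block (0.41 ± 0.16, adjusted p = 0.0303). NDUFS3 of the Q module did not pass (0.22 ± 0.21, adjusted p = 0.358). NDUFA4 was higher in BAT by 0.76 (adjusted p = 0.0104). The row of NDUFB3, a subunit of the distal arm that was not a member, was higher by 1.18 ± 0.24 (adjusted p = 0.000106).

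Among the assembly factors, NDUFAF6 (log2FC 0.71), NDUFAF4 (0.57), NDUFAF2 (0.56), NDUFAF3 (0.46), NDUFAF8 (0.42) and NDUFAF5 (0.39) were higher in BAT. Of 23 alternatives, NDUFAF8 passed in 11, NDUFAF5 in 17, NDUFAF3 in 19, NDUFAF2 in 20, NDUFAF4 in 21 and NDUFAF6 in 22. NDUFAF6 is needed early in assembly, NDUFAF5 and NDUFAF7 modify subunits of the Q module, NDUFAF3 works together with NDUFAF4, and NDUFAF8 stabilizes NDUFAF5. NDUFAF1 missed the threshold (0.40 ± 0.19, adjusted p = 0.0626) and passed with the lamb as a block (0.46 ± 0.17, adjusted p = 0.0258). NDUFAF7 had a log2FC of -0.03 ± 0.11 (adjusted p = 0.808) and a higher count in BAT in 6 of 14 lambs.

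The size of the difference moved with the scaling and with the lambs in the fit. With scaling by TMM (trimmed mean of M-values), 26 members were higher, against 38.8% of all genes. With median-of-ratios size factors over all genes, 23 were higher, against 34.5% of all genes, and 1, NDUFAF7, was lower, against 38.2%. The median over all genes moved from 0.24 to 0.07 and -0.05. Without both libraries of AT lamb 3, 41 members were higher (34 subunits and 7 assembly factors; 18 with a log2FC of at least 1), against 47% and 26% of all genes by these rules. With both libraries of the unused control 2 in place of those of control 3, 42 were higher, against 43.5% of all genes.

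**Figure D2:**
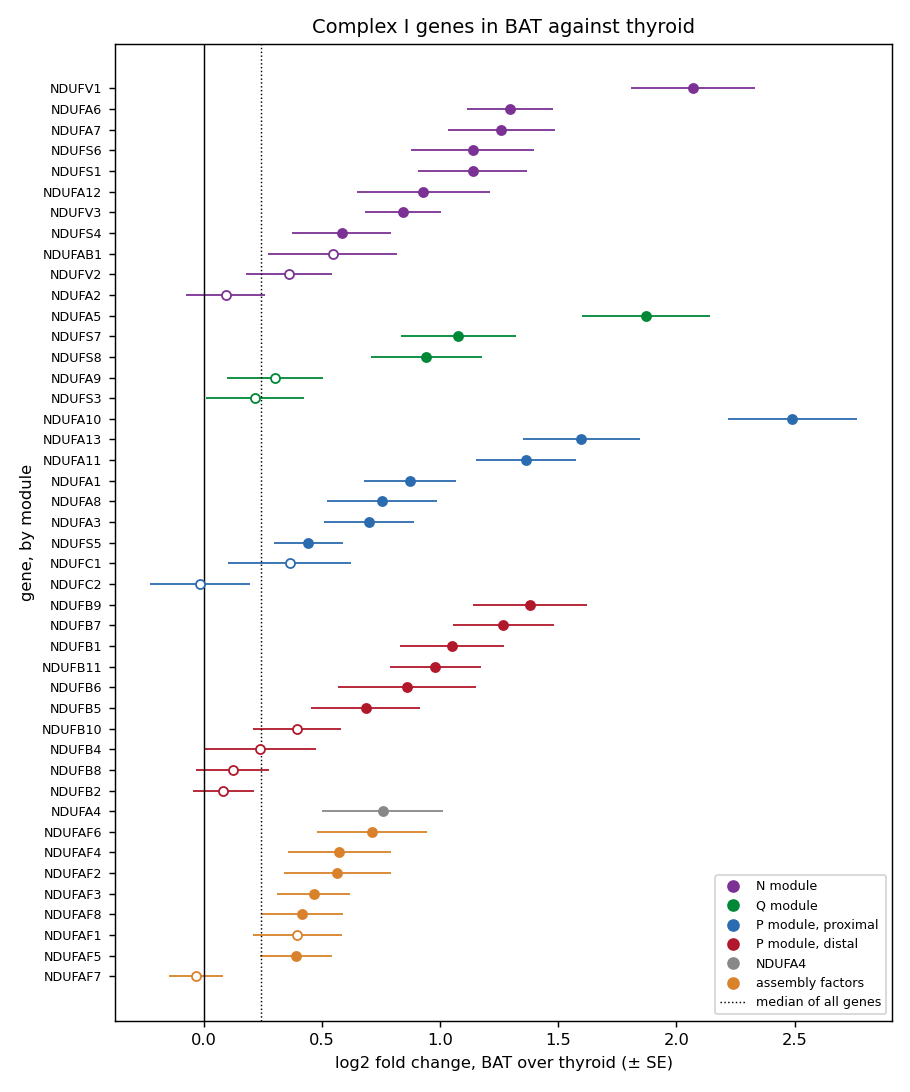
log2 fold change of BAT against thyroid for 44 of the 45 members, ordered by module, with the SE as bars. Filled points passed an adjusted p under 0.05 and the dotted line is the median over all genes tested (0.24). NDUFA10, NDUFV1 and NDUFA5 lie farthest to the BAT side (2.49, 2.07 and 1.87), and NDUFAF7 lies at -0.03.

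The subunits also stood in other proportions to each other in the 2 tissues. For each library, the log2 level per kilobase of each member was set against the median subunit of the same library, which takes out the scaling and the overall level. NDUFA10 was at 0.11 ± 0.15 (SD, n = 14) in BAT and at -1.47 ± 0.28 in thyroid on this log2 scale, and NDUFV1 at 0.92 ± 0.25 and -0.16 ± 0.13. For both, the tissues did not overlap and BAT was higher in 14 of 14 lambs. NDUFA5 was higher against the median subunit in 14 of 14 lambs as well, by 0.91 on average, and NDUFA13 by 0.55.

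Other subunits were lower against the median subunit in BAT. Without overlap between the tissues, these were NDUFB8 (-0.98), NDUFB4 (-0.81) and NDUFB10 (-0.70) of the distal membrane arm, NDUFS3 (-0.79) and NDUFA9 (-0.71) of the Q module and NDUFV2 (-0.72) of the N module, given as the mean of BAT minus thyroid over 14 lambs. Members without overlap were thus 8 of 45, 2 of them higher and 6 lower in BAT, against 9.44% of all genes set against the same median subunit. In every lamb, 4 members were higher and 9 were lower. The share of all genes by this last rule was not computed, so that this count cannot be read as particular to complex I genes. Of the flavoprotein pair NDUFV1 and NDUFV2, which sit side by side at the tip of the N module, one was thus higher and the other lower against the median subunit. In the thyroid library of AT lamb 3, NDUFA10 (-1.39) and NDUFV1 (-0.14) stood close to the thyroid means, although the sum of the subunits in that library was like that of BAT. Some other members stood near their BAT means there. NDUFB2 was at -1.63, against means of -1.58 in BAT and -0.51 in the other thyroid libraries in use. NDUFA2 was at -0.18, against -0.26 and 0.83.

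**Figure D3:**
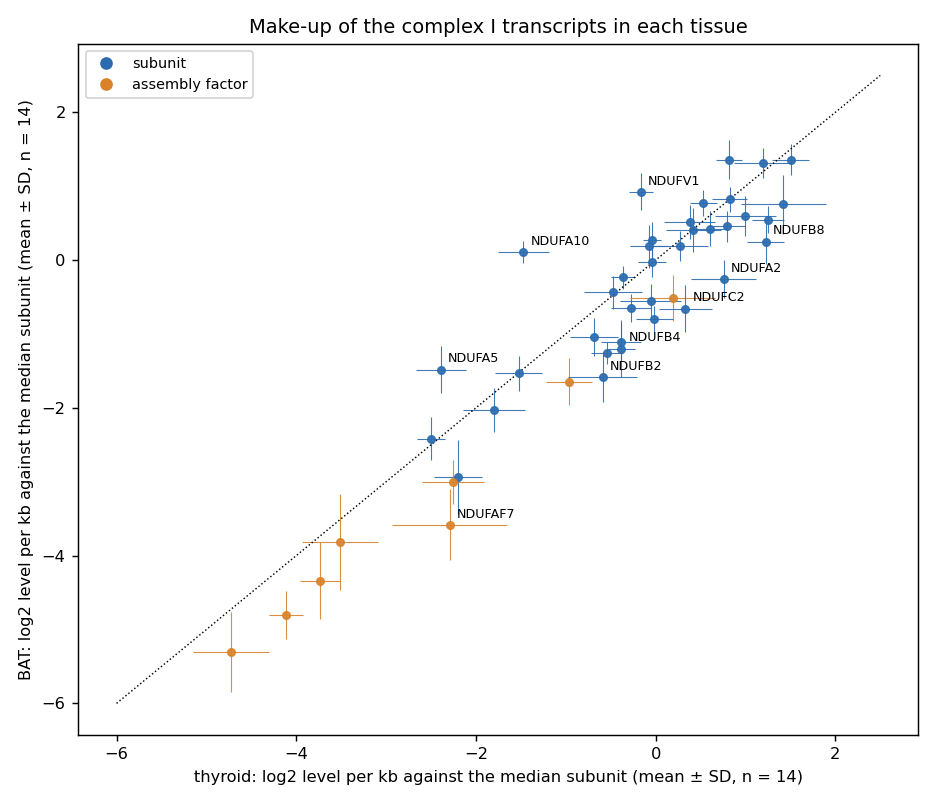
Level of 44 of the 45 members against the median subunit of the same library, on the log2 scale per kilobase, in BAT (vertical axis) and thyroid (horizontal axis), as the mean with the SD over 14 lambs. Points on the diagonal have the same place in both tissues. NDUFA10 lies far above it (0.11 in BAT and -1.47 in thyroid) and NDUFB8 below it (0.25 and 1.23).

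In BAT, most complex I genes did not pass the test in any comparison of the groups, and the exception was the assembly factor NDUFAF4. Summed over the subunits, the controls held 42575 and 50104 normalised counts, the AT lambs 20384, 52587 and 59339 (lowest, median and highest of 6) and the cold lambs 30561, 40057 and 46263. The groups overlapped, the lowest value was that of AT lamb 6, and the unused control 2 was higher than all lambs in use (84985). The brown adipocyte markers summed to 23261 and 27144 in the controls, 751 to 16658 in the AT lambs and 4845 to 16871 in the cold lambs, and to 92575 in the unused control.

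Of the 45 members, 1 was lower in cold than in the controls and 0 were higher, against 0.879% of all 14905 genes lower. At an unadjusted p under 0.05 there were 4, against 2704 of all genes in either direction, a larger share. The log2FC was below 0 for 42 of 45 members, against 8764 of the 14905 genes, with a median of -0.21 against -0.10 over all genes. In AT against the controls, 1 member was lower and 0 were higher, against 6.15% of all genes lower, and the median was -0.07 against -0.03 over all genes.

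Both calls were NDUFAF4 (chromosome 8, 44996737 to 45007509, plus strand), which is needed early in the assembly of complex I. Its normalised counts were 331 and 257 in the controls, 81.0, 115 and 167 in the AT lambs and 94.7, 126 and 161 in the cold lambs. All 12 treated lambs lay below both controls and below the unused control 2 (399). NDUFAF4 fell by 1.19 ± 0.28 on the log2 scale in cold (adjusted p = 0.0472) and by 1.32 ± 0.28 in AT (adjusted p = 0.0115), each against the same 2 controls. The sum of the brown adipocyte markers was lower in all treated lambs than in the controls too, as given above. UCP1 alone made up 22621 of this sum in control 1 and 20733 in control 3. Of 5 such markers tested against the controls, 4 had a log2FC below 0 and 1 had one above 0, at 0.97 in cold and 1.16 in AT. The sum of 7 fibroblast markers, such as COL1A1 and DCN, was higher in all treated lambs, at 27196 and 27654 normalised counts in the controls, 30326 to 180773 in AT and 31590 to 105384 in cold, with 45283 in the unused control 2. The part of these cell types in the level of NDUFAF4 was not tested. The fall in AT passed in 22 of 22 alternatives (adjusted p between 0.000964 and 0.0374). The fall in cold passed in 12 of 22 (adjusted p between 0.00562 and 0.0821), and it did not pass, for instance, without AT lamb 3 (-1.16, adjusted p = 0.0559).

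**Figure D4:**
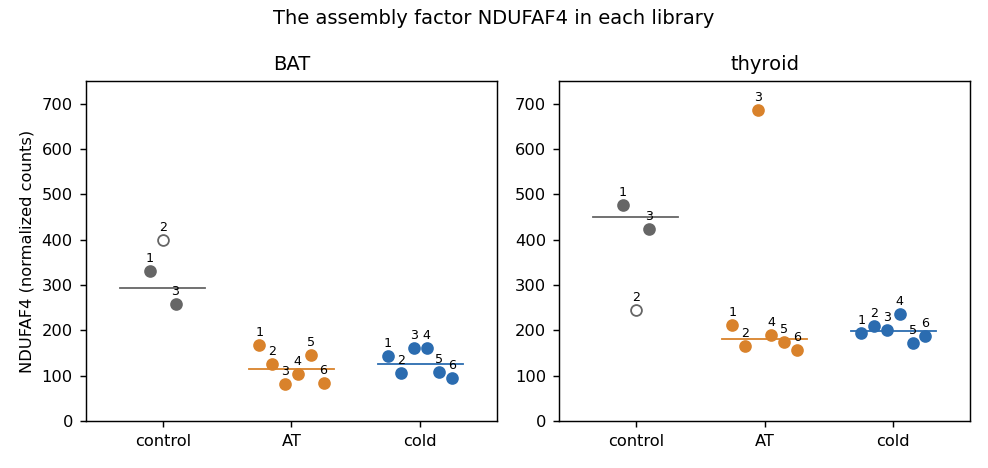
Normalised counts of NDUFAF4 in each library by tissue and group, each point with the number of its lamb within the group. The line is the median of the libraries in use and the open circle is control 2. In BAT, the 12 treated lambs lie between 81.0 and 167, below the controls at 257 and 331, and in thyroid AT lamb 3 lies above all others at 686.

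The other assembly factors did not pass in BAT, with log2FC between -0.48 (NDUFAF8) and -0.01 (NDUFAF3) in cold and between -0.44 (NDUFAF6) and 0.26 (NDUFAF3) in AT. These 6 core subunits lay between -0.34 (NDUFV2) and -0.12 (NDUFS8) in cold, and between -0.19 (NDUFV2) and 0.20 (NDUFV1) in AT, without passing. As an example of a core subunit, NDUFV1 had 3472 and 4007 normalised counts in the controls, 1114, 4869 and 5662 in the AT lambs and 2549, 3592 and 3942 in the cold lambs, with overlapping groups.

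The number of calls in BAT depended on the controls. With all 3 controls, 2 members were lower in cold and 2 in AT, against 3.18% and 5.41% of all genes. With all 3 controls and TMM scaling, 7 were lower in each, against 6.73% and 11.2% of all genes. Of these, NDUFAF4, NDUFS1, NDUFC1, NDUFB4, NDUFA11 and NDUFV3 were lower in both (named after their values were seen). With control 2 in place of control 1, 8 and 6 members were lower, against 4.42% and 5.53% of all genes, and in place of control 3, 5 and 1, against 4.59% and 4.6%.

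Cold was compared with AT to separate temperature from age. In BAT, 0 of 45 members passed by edgeR or DESeq2, against 0.309% of all genes by edgeR. At an unadjusted p under 0.05 there were 0 members, against 1831 of the 14905 genes. The log2FC was below 0 for 39 members, against 8504 of these genes, with a median of -0.19 against -0.05 over all genes. The lowest p were those of NDUFC2 of the proximal membrane arm (-0.41, adjusted p = 0.439) and NDUFA5 (-0.46, adjusted p = 0.449). Without AT lamb 6, whose BAT had few brown adipocyte transcripts, 19 members had an unadjusted p under 0.05, against 22.8% of all genes, and the median was -0.31 against -0.11 over all genes, but again 0 passed.

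In thyroid, the level of complex I genes lay below the controls in most treated lambs, but the number that passed changed with AT lamb 3, with the controls and with the scaling. Summed over the subunits, the controls held 62387 and 101603 normalised counts, the AT lambs 40767, 43946 and 137404, and the cold lambs 43231, 45721 and 49168. The highest AT value was that of lamb 3, and the other 5 reached at most 49574. All cold lambs and these 5 AT lambs lay below both controls and, on this sum, narrowly below the unused control 2 (49902). Single subunits of control 2 went both ways against these 5 AT lambs. NDUFS7 was above them (6580, against 1698 to 2549), while NDUFS4 (287, against 601 to 980) and NDUFB6 (238, against 400 to 631) were below them. Among the controls in use, the higher sum was that of control 3, whose thyroid follicular markers also summed to 5995409. They summed to 2930599 in control 1, 1352320 to 2762308 in the treated lambs and 1963885 in the unused control 2.

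Markers of other cell types in the thyroid moved with the treated groups as well. Fibroblast markers summed to 12261 and 14972 normalised counts in the controls, 34040 to 145399 in AT and 29592 to 132103 in cold, with 24231 in the unused control 2. Macrophage markers (6 genes with a row, such as CD68 and C1QA) summed to 1462 and 1625 in the controls, 2676 to 5696 in AT and 3152 to 9005 in cold, with 2178 in control 2. Both sums were higher in every treated lamb than in any of the 3 controls. Endothelial markers (8 genes) summed to 26320 and 38397 in the controls, 14072 to 26991 in AT and 15709 to 21502 in cold. The unused control 2 held 14342 of them, within the range of the AT lambs and below every cold lamb. The part of these cell types in the levels of complex I genes was not tested.

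With all libraries, 3 of 45 members were lower in cold than in the controls and 0 were higher, against 16.9% of all 16122 genes lower, and 2 of these were lower by a log2FC of at least 1 in size, against 6.15% of all genes. The log2FC was below 0 for all 45 members, against 11315 of the 16122 genes. Its median was -0.92 over the subunits, -0.56 over the assembly factors and -0.28 over all genes. At an unadjusted p under 0.05, in either direction, there were 22 members, against 5719 of all genes. In AT, 1 member was lower and 0 were higher, against 18.7% of all genes, and 0 were lower by a log2FC of at least 1 in size, against 5.98%. The median over the members was -0.50.

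The members that passed were accessory subunits. NDUFA11 (chromosome 5, 16987608 to 16992751, plus strand), which joins parts of the membrane arm, had 974 and 2213 normalised counts in the controls, 513, 664 and 1720 in AT and 545, 614 and 796 in cold. All cold lambs lay below both controls, AT lamb 3 lay between them, and the unused control 2 (515) lay below every cold lamb. NDUFA11 fell in cold by 1.30 ± 0.37 on the log2 scale (adjusted p = 0.0276).

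NDUFB1 of the distal membrane arm (chromosome 18, 57104439 to 57115622, minus strand) had 223 and 423 normalised counts in the controls, 114, 167 and 400 in AT and 91.0, 140 and 177 in cold. It fell in cold by 1.24 ± 0.39 (adjusted p = 0.0378), and again only AT lamb 3 of the treated lambs reached the controls, with 288 in the unused control 2. NDUFV3 of the N module (chromosome 1, 286435245 to 286446895, plus strand) had 841 and 1857 normalised counts in the controls, 533, 677 and 1229 in AT and 613, 660 and 839 in cold, with no overlap between cold and the controls. It fell by 0.94 ± 0.29 in cold (adjusted p = 0.0347) and by 0.85 ± 0.29 in AT (adjusted p = 0.0487).

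None of these calls of NDUFA11, NDUFB1 and NDUFV3 held with the unused control in place of control 3. With the unused control 2 (359 normalised counts of NDUFV3) in its place, the log2FC of NDUFV3 was 0.23 in cold and 0.32 in AT. In cold, that of NDUFA11 was then -0.21 (adjusted p = 0.758) and that of NDUFB1 -0.91 (adjusted p = 0.125). In this fit 0 members passed in either comparison, against 10.7% and 9.32% of all genes lower, with medians of -0.28 and 0.09 over the members. With TMM or median-of-ratios scaling, 0 members passed in cold or AT, against 4.97% and 4.7% of all genes lower with the first and 4.84% and 4.67% with the second, while the median over all genes moved from -0.28 to between 0.02 and 0.05.

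The thyroid library of AT lamb 3 held more of nearly every member than the other 5 AT lambs. All 37 subunits were above the highest of these 5, at 1.61 to 5.96 times their median, with a median ratio of 3.14, and so were 7 of the 8 assembly factors (0.863 to 4.01 times over all 8, median 2.49). Of all genes with at least 10 reads in each AT library, 34.8% were above the other 5, with a median ratio of 1.07. The highest ratios were those of NDUFAB1 (5.96), the mitochondrial acyl carrier protein that is also a subunit, the distal arm subunit NDUFB6 (5.93) and the N module subunit NDUFA12 (5.38). NDUFAF7 was the one assembly factor that was not above the others. The skeletal muscle markers of the same library summed to 3751330 normalised counts, and their part in these levels was not tested.

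Without AT lamb 3, which was left out after its values were seen, 37 members were lower in cold than in the controls and 35 were lower in AT, with 0 higher in both. All genes called lower were 25.9% in cold and 30% in AT by the same rule. With a log2FC of at least 1 in size, 17 and 20 members were lower, against 8.48% and 10.5% of all genes. The calls comprised 33 of 37 subunits and 4 of 8 assembly factors in cold, and 31 and 4 in AT. In cold, where AT lamb 3 is in neither group compared but enters the shared estimate of the spread, the fold changes hardly moved and the errors shrank. NDUFA10 was at -1.39 ± 0.48 with it (adjusted p = 0.0579) and at -1.39 ± 0.22 without it (adjusted p = 0.000626).

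The largest falls without AT lamb 3 were those of NDUFA10 (-1.39), NDUFA5 (-1.34) and NDUFA11 (-1.31) in cold, and of NDUFA12 (-1.46), NDUFA10 (-1.46) and NDUFA5 (-1.35) in AT. NDUFA10 had 1094 and 2084 normalised counts in the controls, 437 to 664 in the other 5 AT lambs and 495 to 780 in the cold lambs. NDUFA5 had 560 and 765 in the controls, 199 to 316 in these AT lambs and 224 to 313 in the cold lambs. Neither group reached the controls for either gene, while the unused control 2 lay within or below the treated lambs, at 589 for NDUFA10 and 145 for NDUFA5.

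The same 6 core subunits fell in cold without AT lamb 3, from NDUFV1 (-1.12 ± 0.21, adjusted p = 0.0016) and NDUFS8 (-0.97) over NDUFS3 (-0.95), NDUFS7 (-0.87) and NDUFS1 (-0.78) to NDUFV2 (-0.67). In AT, 5 of the 6 fell, and NDUFS8 did not pass (-0.73 ± 0.29, adjusted p = 0.0691). With TMM scaling as well, NDUFS7, NDUFS8 and NDUFV2 did not pass in cold (adjusted p = 0.0533, 0.103 and 0.0592). In AT, NDUFS3, NDUFS7 and NDUFS8 then did not pass (adjusted p = 0.0654, 0.0998 and 0.381). With all 3 controls instead, NDUFS1 did not pass in cold or AT (adjusted p = 0.112 and 0.0842), nor did NDUFS8 in AT (0.0678). NDUFV1 had 2400 and 4584 normalised counts in the controls, 1324 to 1869 in the other 5 AT lambs and 1310 to 1925 in the cold lambs, again without overlap, and 3018 in the unused control 2.

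Of the assembly factors, 4 passed without AT lamb 3. In this fit, NDUFAF4 (-1.18 in cold and -1.33 in AT), NDUFAF6 (-1.13 and -1.13), NDUFAF8 (-0.86 and -0.73) and NDUFAF1 (-0.68 and -0.66) fell in both. NDUFAF2, NDUFAF3, NDUFAF5 and NDUFAF7 did not pass in either, with log2FC from -0.78 (NDUFAF2 in AT) to 0.01 (NDUFAF7 in AT). NDUFAF4 had 423 and 476 normalised counts in the controls, 157 to 213 in the other 5 AT lambs and 171, 198 and 236 in the cold lambs, against 686 in AT lamb 3. All treated lambs but AT lamb 3 lay below both controls and below the unused control 2 (245), as all did in BAT. Which assembly factors passed changed with the processing. Without AT lamb 3 and with TMM scaling, NDUFAF4 alone passed in both comparisons (adjusted p = 0.00538 in cold and 0.00342 in AT). With all 3 controls, NDUFAF4, NDUFAF6 and NDUFAF5 (-0.91 and -0.97) passed in both, NDUFAF8 passed in cold, and NDUFAF1 did not pass. With AT lamb 3, the log2FC of NDUFAF4 was -1.17 ± 0.44 in cold (adjusted p = 0.0739) and -0.77 ± 0.45 in AT (adjusted p = 0.227).

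The count without AT lamb 3 moved with the scaling and the controls. It was 22 in cold and 21 in AT with TMM scaling, against 10.3% and 11.8% of all genes lower, and 22 and 21 with all 3 controls, against 19% and 19.2%. With the unused control 2 in place of control 1 it was 20 and 21, against 18.9% of all genes in each, and in place of control 3 it was 11 and 9, against 14.8% and 14.7%. Thyroid control 1 held 348266 normalised counts of muscle markers, and the unused control 2 held 52672 of 5 parathyroid markers and 57929 of 8 adipocyte markers, against 306, 123 and 8897 of the same lists in control 3. In the adipocyte sum, PNPLA2 alone held 45570 in control 2 and 5375 in control 3. PLIN4 (16.1 against 109) and LPL (1096 against 1205) were lower in control 2. The others were higher there, such as FABP4 (9421 against 1585) and PLIN1 (66.0 against 57.9). The part of all these markers in the levels was not tested.

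**Figure D5:**
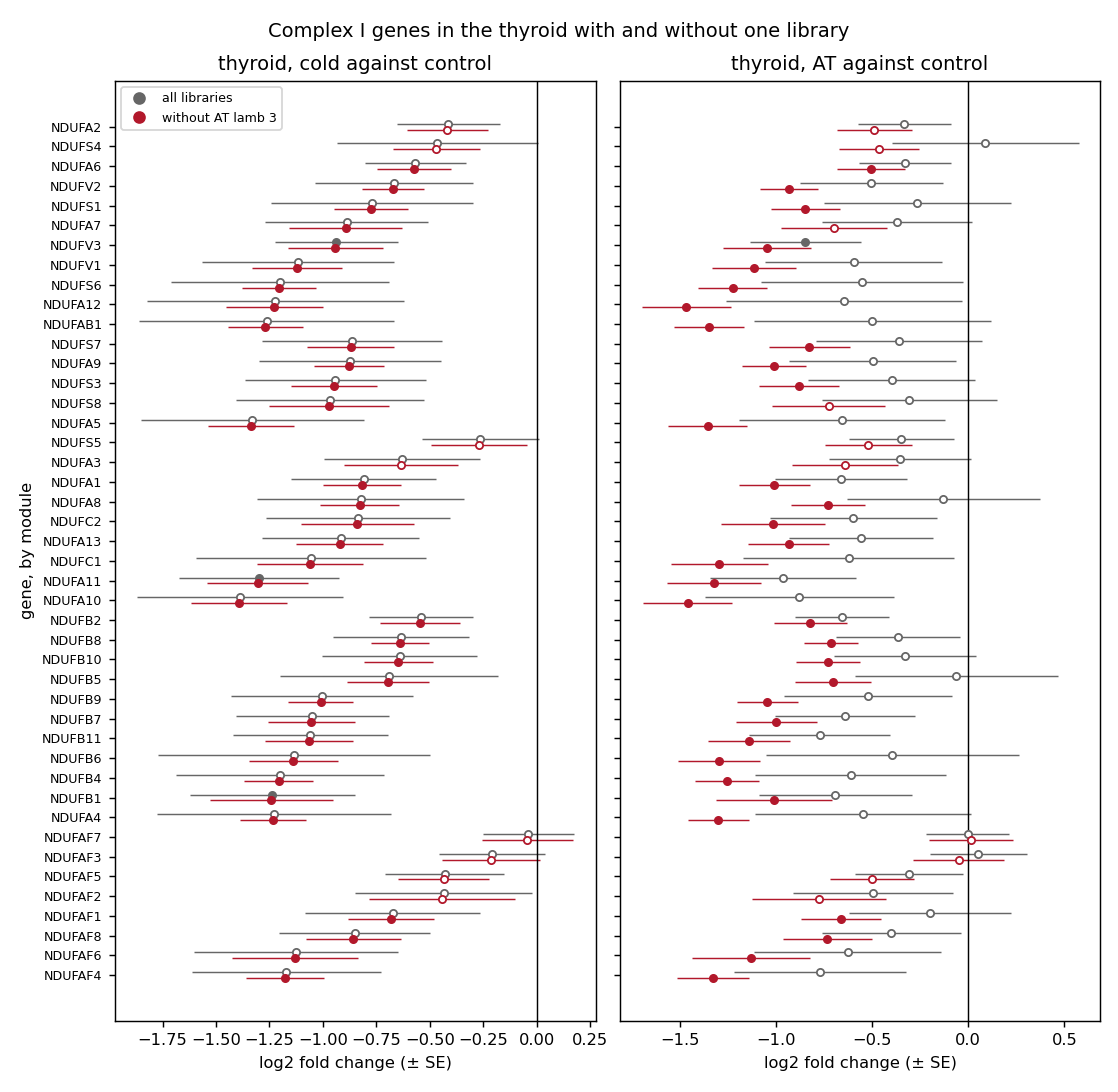
log2 fold change of 44 of the 45 members in thyroid, cold against control and AT against control, with all libraries (grey) and without AT lamb 3 (red). Filled points passed an adjusted p under 0.05. Over all 45 members, 3 and 1 passed with all libraries and 37 and 35 without AT lamb 3, while the cold values hardly move.

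Between cold and AT, 0 of 45 members passed in thyroid by edgeR or DESeq2, as 0% of all genes passed by edgeR. At an unadjusted p under 0.05 there were 0 members, against 870 of the 16122 genes. The median over the members was -0.43 with AT lamb 3 and 0.05 without it. The lowest p were those of NDUFS8 (-0.66) and NDUFA8 of the proximal membrane arm (-0.69), with an adjusted p of 0.911 for both.

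The difference between the tissues in the response to cold against AT was tested in one fit of both tissues. By edgeR and by DESeq2, 0 of 45 members passed and 0 had an unadjusted p under 0.05. Of all 17021 genes, 0% passed by edgeR and 1339 had an unadjusted p under 0.05. The lowest p were those of NDUFAF6 (0.64, BAT minus thyroid, unadjusted p = 0.157) and NDUFAB1 (0.73, unadjusted p = 0.168). The median over the members was 0.21, and without AT lamb 3 it was -0.20 with 1 unadjusted p under 0.05.

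Other mitochondrial genes were counted by the same rules, and their counts are read against the same shares of all genes. In BAT against thyroid, 13 of 16 genes of complex V (ATP synthase) and 2 of 4 of complex II (SDHA at 1.66 and SDHB at 0.60) were higher in BAT, with 0 lower, against 44.5% of all genes higher and 26.5% lower. Of 12 assembly factors with other names, 4 were higher and 1 was lower, and of 9 genes of mitochondrial content, such as HSPD1 and IMMT, 6 were higher and 1, the import receptor TOMM20, was lower (-0.93). Of 10 regulators of mitochondrial biogenesis that were tested, 6 were higher, among them the coactivator PPARGC1B (4.87 ± 0.57).

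In BAT, PPRC1, a coactivator of respiratory genes, was the regulator that fell in cold (-1.07 ± 0.22) and in AT (-0.97 ± 0.22) against the controls, and 1 of 16 genes of complex V, ATP5MC1, fell in both (-1.19 ± 0.27 and -1.10 ± 0.27). Of 9 genes of mitochondrial content, 1 fell in cold, the citrate synthase CS (-1.25), and 2 fell in AT, the import genes TOMM40 (-0.99) and TOMM20 (-0.61), with medians of -0.61 and -0.50 over the 9. These counts stand against 0.879% of all genes lower in cold and 6.15% in AT.

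In thyroid without AT lamb 3, 4 of 4 genes of complex II fell in cold and in AT, as did 13 and 12 of 16 of complex V, 9 and 9 of 9 of mitochondrial content, 6 and 7 of 12 assembly factors with other names, and 5 and 6 of 10 regulators, against 25.9% and 30% of all genes. With AT lamb 3, these were 1 and 0 of complex II, 1 and 0 of complex V, 4 and 4 of mitochondrial content, 2 and 1 assembly factors, and 4 and 5 regulators, against 16.9% and 18.7%. PPRC1 was lowest among the regulators in both comparisons, at -1.59 ± 0.27 each with all libraries.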

How the data were processed

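The authors extracted RNA with TRIzol, captured mRNA with oligo(dT) beads and sequenced read pairs on a BGISEQ-500. Per the submitters' processing notes, reads were checked with FastQC 0.11.9, trimmed with Trimmomatic 0.39, aligned with STAR 2.7.7a and counted with featureCounts of Subread 2.0.0, and the deposited values are raw counts per gene on Oar_rambouillet_v1.0, multimapping reads included. Counts were tested with edgeR 4.0.16 (R 4.3.3; quasi-likelihood, robust, Benjamini-Hochberg over all genes) per tissue, with all groups in one fit, and over both tissues in one fit of 28 libraries. A gene was tested where 10 or more libraries held 10 or more of its reads. The labels name no batch. The study left out 1 control without naming it, and the 2 controls used here are those whose counts were proportional to its supplementary normalised counts. A log2FC is positive where the first-named group is higher, errors are SE unless SD is given, and p-values are 2-sided. DESeq2 1.42.0, TMM, other filters, all 3 controls and leaving out each lamb were alternatives, and leaving out a control put the unused one in its place. Alternatives that join 2 of these changes were added after seeing the data.

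Members and lists were chosen with earlier results of these data known. Named by rule were the core subunits, NDUFAF1 to NDUFAF8, up to 3 members with the largest log2FC in each direction per comparison (where none passed, the 2 lowest p), the 3 highest and 3 lowest levels per kilobase in each tissue, and at most 4 genes of another list. Any others were chosen after their values were seen. The single values of 1 member are not reported here. Both libraries of a lamb came from one animal, so that they are paired. The fit of both tissues had no term for the lamb, and a fit with the lamb as a block was an alternative. The deviations of a lamb's libraries from the group means over genes correlated at over 0.1 in 11 of 14 lambs (median r 0.17). The fits were tested on simulated data. Replicate lambs are separate animals, and lamb numbers within a group follow the order of deposit.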

Additional observations from a re-analysis of the deposited data

Results flagged for a closer look

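Among 6 core subunits, the assembly factors and the sums, 20 of 64 groups of libraries held a sample whose gap to the nearest other exceeded Dixon's 95% critical value, where chance gives about 1 in 20. Of these, 13 were the thyroid library of AT lamb 3, which was highest each time. Its normalised counts were 5792 for NDUFV1, 7600 for NDUFV2, 3777 for NDUFS1, 3839 for NDUFS3, 7441 for NDUFS7 and 6314 for NDUFS8. Among the assembly factors they were 645 for NDUFAF1, 686 for NDUFAF4, 556 for NDUFAF5, 800.4 for NDUFAF6 and 1131 for NDUFAF8, and the sums were 137404 over the subunits and 6928 over the assembly factors.

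The BAT library of AT lamb 6 was far below its group for NDUFV1 (1114 normalised counts), NDUFS3 (346), NDUFS8 (739) and the sum of the assembly factors (1357). In thyroid, cold lamb 1 was highest for NDUFAF2 (167) and lowest for NDUFAF7 (760), and cold lamb 4 was highest for NDUFAF3 (1845). The BAT library of control 2, which was outside the comparisons, held 84985 normalised counts over the subunits, more than any BAT library in use.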

How the results depend on the processing

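No member passed between cold and AT in BAT (23 alternatives), in thyroid (28 alternatives) or in the difference between the tissues (24 alternatives). Single genes that had passed gave 888 values under the alternatives, of which 790 kept their direction and call, 94 lost the call and 4 changed sign. Single genes that had not passed gave 2598 values, of which 131 passed, and 173 others moved by more than their SE. The sign differed in 170 of these 2598 values. The 4 changes of sign among genes that had passed were those of NDUFV3 in thyroid with control 2 in place of control 3, at 0.23 in cold and 0.32 in AT, and with AT lamb 3 left out as well, at 0.22 and 0.12. When single lambs were left out, the log2FC of NDUFV3 ranged from -0.99 to 0.23 in cold and from -1.05 to 0.32 in AT. The cause was not tested.

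Counts of members that passed moved as follows. In BAT, cold against control gave 1 member, 0 without a filter on low counts, 2 with all 3 controls, 7 with these and TMM scaling, and 0 to 8 when single lambs were left out, with 0 in 9 of 14 cases. AT against control gave 1, then 2, 7 and 1 to 6. In thyroid, cold against control gave 3 members, 0 with TMM or median-of-ratios scaling, 6 with DESeq2, 1 with all 3 controls and TMM, 34 with only the 2 groups compared, and 0 to 37 when single lambs were left out. AT against control gave 1 member, 0 with a log2FC of at least 1, with TMM, median-of-ratios or all 3 controls (with or without TMM), without a filter, with edgeR's filterByExpr or with only the 2 groups, and 0 to 35 when single lambs were left out, with 0 in 12 of 14 cases. With AT lamb 3 left out and a second change made, the counts in cold and AT were 22 and 21 with TMM, 37 and 35 with DESeq2, 22 and 21 with all 3 controls, 11 and 9 with control 2 in place of control 3, and 20 and 21 in place of control 1. BAT against thyroid gave 32 members, 13 with a log2FC of at least 1 and 31 to 42 when single lambs were left out. For some settings here and in the next paragraph, such as only the 2 groups compared, no share of all genes is given. Those counts cannot be read as particular to complex I genes.

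With the lamb as a replicate block, 36 members passed in BAT against thyroid and 0 in the difference between the tissues, and with the block and TMM scaling 33 passed (32 higher and 1 lower in BAT). The paired fit changed no other call by more than 1.5 times. Only 2 controls and the unlike thyroid libraries limit the comparisons with the controls. What depth limits was not tested.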
